A study of Mus musculus with 9 samples.

Results

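The transcriptome described here is that of NP53, a mouse line of diffuse midline glioma, in its unedited state: the 3 libraries titled Gcontrol, genotype WT, of the 9 samples in the series. They were chosen by their titles alone. The other libraries come from TIM-3 knockout derivatives of the line (G1C7 and G2C9) and were not used, so every value below describes 1 group and no comparison between groups was made. Poly(A) RNA was sequenced from cells grown in DMEM with fetal bovine serum and antibiotics. The labels do not say whether the 3 libraries came from separate cultures, so the spread between them may be technical, and they represent a single cell line.

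Diffuse midline gliomas are childhood tumours of the brain's midline, and their cells are commonly described as resembling precursors of oligodendrocytes, with an astrocyte-like or a mesenchymal programme in part of them. Glioma lines kept in serum are known to differ from the tumours they came from. Tumour cells also release chemokines, cytokines and growth factors that act on macrophages, lymphocytes and vessels, so the receptors and secreted factors of a line bear on how it is used as a model.

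The libraries held 53476717, 53569889 and 56035382 reads in 55401 annotated genes. CPM divide a gene's reads by the library total and show where sequencing effort went. TPM (transcript levels scaled to the same total in each library) first divide by the gene's annotated exonic length, and all comparisons of level between genes below are in TPM. A gene of 2000 bases at 1 TPM had about 31.1 reads per library. Values are means ± SD over the 3 libraries (n = 3), with the libraries in the order of replicates 1, 2 and 3. For a gene with 0 reads, the level that 6 reads over the 3 libraries (3 read pairs) would give for its length is printed as an upper limit, and it covers counting error only.

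At a mean of 1 TPM or more, 13299 genes were detected, 11275 of them protein coding. That is 51.5% of the 21897 protein coding genes, and their median level over all of them was 1.45 TPM. This share and this median stand as the background for the gene lists below. The 1913 protein coding genes at 100 TPM or more included 125 at 1000 TPM or more. The 10 most abundant genes held 8.71% ± 0.0917 of TPM, the 100 most abundant 26.4% ± 0.108 and the 1000 most abundant 60.9% ± 0.163. By reads, the corresponding shares were 4.27%, 17.4% and 51.3%, each lower than the share of TPM.

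The most abundant transcript of a nuclear gene was Lgals1, which encodes galectin-1, a galactoside-binding lectin released by many mesenchymal and tumour cells (GRCm38, chromosome 15, 78926725 to 78930465, plus strand). Lgals1 stood at 10263, 10346 and 10566 TPM, a mean of 10392 ± 157. The libraries differed little for this gene, with a coefficient of variation (on the CPM scale, as throughout) of 1.22%. Ahead of Lgals1 were mt-Co1 at 14872 ± 218 TPM and mt-Nd1 at 13693 ± 316 TPM, which encode subunits of respiratory complexes IV and I. Eef1a1, the translation elongation factor that brings aminoacyl-tRNA to the ribosome, followed at 9220 ± 154 TPM, and Actb, cytoplasmic beta-actin, at 6734 ± 177 TPM. The other members of the leading 15 were mt-Cytb, mt-Nd2, the ribosomal protein genes Rplp0, Rplp1, Rpl8 and Rps2, the chaperone genes Hsp90ab1 and Calr, Ptma (prothymosin alpha) and S100a6, a calcium-binding S100 protein at 4217 ± 61.3 TPM.

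**Figure D1:**
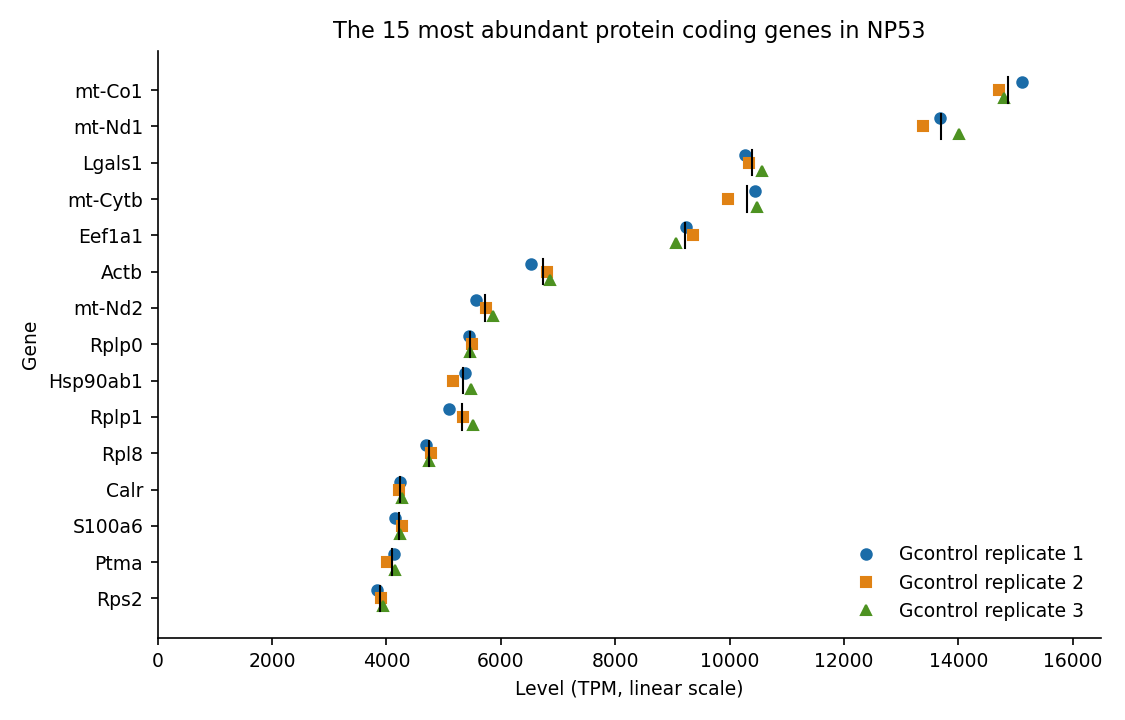
Levels (TPM, linear axis) of the 15 most abundant protein coding genes, one point per Gcontrol library and a black line at the mean of the 3. The levels run from mt-Co1 at 14872 TPM down to Rps2 at 3893 TPM, and Lgals1 leads the nuclear genes.

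Ranked by reads, the order changed, since long transcripts collect more reads at the same level. Eef1a1 (6578 CPM) and mt-Co1 (6575 CPM) led, and the ninth place went to Il1rl1, which encodes ST2, the receptor subunit that binds interleukin-33. Il1rl1 took 171045, 177391 and 173516 reads, or 3202 ± 107 CPM (chromosome 1, 40429570 to 40465415, plus strand). In TPM Il1rl1 stood 58th among all genes, at 1623, 1665 and 1580 TPM. Col1a1, the alpha-1 chain of type I collagen, was 12th by reads with 2743 CPM and 65th by level with 1461 ± 85.8 TPM. Of the 15 leading genes by TPM, 9 were also among the 15 leading by CPM. The genes that joined by CPM were Eef2, Il1rl1, Pkm, Fth1, Col1a1 and Hspa8, which encode an elongation factor, ST2, pyruvate kinase, ferritin heavy chain, a collagen chain and a constitutive heat shock chaperone.

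Housekeeping classes held a large part of the transcriptome. The 82 ribosomal protein genes made up 9.63% ± 0.114 of TPM and 4.84% of reads, and 79 of them were at 1 TPM or more. Cytoskeletal genes followed with 2.77% ± 0.0320 of TPM over 30 genes, then chaperones with 2.55% ± 0.0186 over 22 genes and translation factors with 2.53% ± 0.00621 over 15 genes. Glycolytic enzymes held 1.14% ± 0.0133 of TPM over 18 genes, led by Gapdh (2073 TPM), Pkm (1973 TPM), Ldha (1566 TPM) and Pgk1 (1461 TPM). Oxidative stress and iron genes held 1.09% ± 0.0250 over 21 genes, led by Fth1 at 2805 ± 19.6 TPM and Txn1, thioredoxin, at 1806 ± 78.6 TPM. In these 5 lists all members were at 1 TPM or more except Tagln (0.917 TPM) among the cytoskeletal genes and Aldoc (0.815 TPM) among the glycolytic enzymes. Tagln shares 67.9% of its exonic bases with another gene, and reads in shared stretches were dropped.

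The 13 protein coding genes of the mitochondrial genome held 5.20% ± 0.0540 of TPM and 1.80% of reads and split into separate sets. The genes mt-Nd1, mt-Nd2, mt-Co1, mt-Nd4, mt-Nd5, mt-Nd6 and mt-Cytb stood between 2307 TPM (mt-Nd4) and 14872 TPM (mt-Co1). The other 6, mt-Co2, mt-Atp8, mt-Atp6, mt-Co3, mt-Nd3 and mt-Nd4l, stood between 3.83 TPM (mt-Nd4l) and 15.8 TPM (mt-Nd3). These 6 lie next to one another in the mitochondrial genome, between mt-Co1 and mt-Nd4. In reads, mt-Co2 had 100, 102 and 103, while mt-Co1 beside it had 357018, 351052 and 364019. Reads with several positions in the genome were dropped in the counting, and the part of that step in the gap was not tested. The share given for the mitochondrial genome thus rests on 7 genes. Of the near-identical inducible Hsp70 genes, Hspa1b stood at 62.6 TPM and Hspa1a at 2.39 TPM, and these levels are uncertain for the same counting step.

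**Figure D2:**
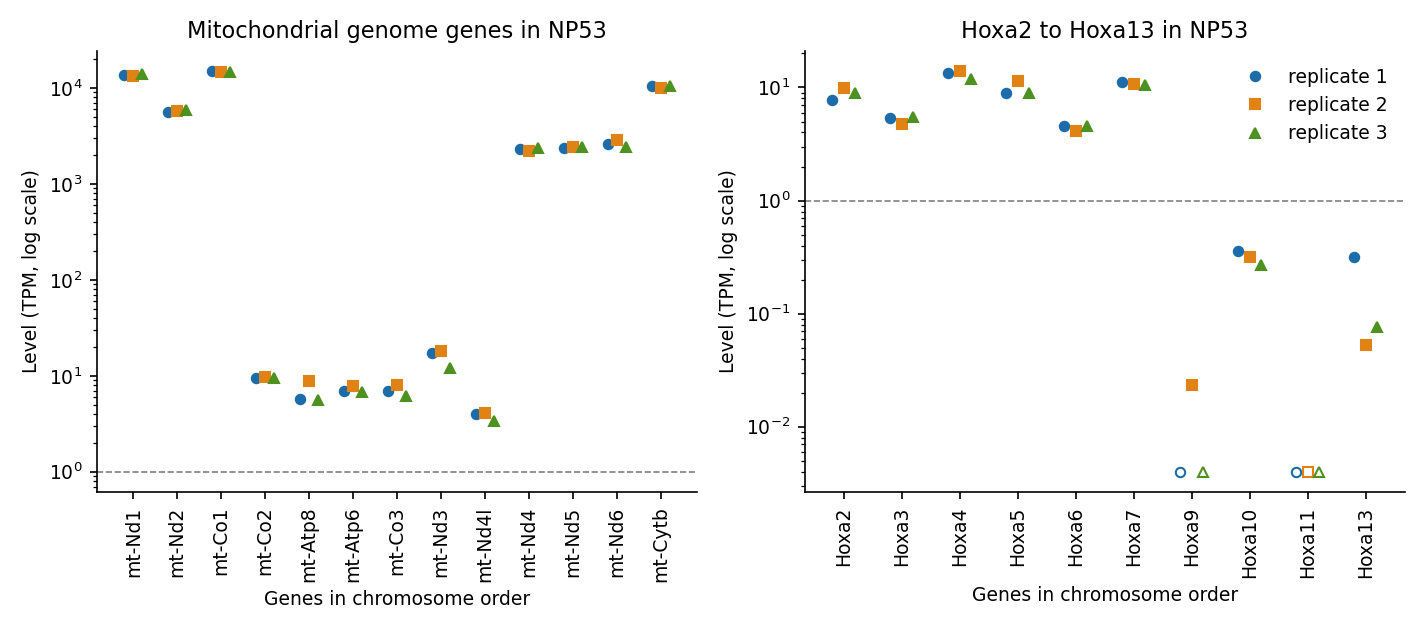
Levels (TPM, log axes) of the 13 mitochondrial protein coding genes (left) and of the genes from Hoxa2 to Hoxa13 (right) in chromosome order, one point per library, with open symbols at the foot for 0 reads and a dashed line at 1 TPM. The 6 neighbouring genes from mt-Co2 to mt-Nd4l lie between 3.83 and 15.8 TPM, and Hoxa2 to Hoxa7 lie above the line while Hoxa9 to Hoxa13 lie below it.

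The label of a glioma line was set against lists of marker genes, and the lists differed. At 1 TPM or more were 3 of 10 astrocyte markers, 4 of 10 oligodendrocyte precursor markers and 1 of 10 oligodendrocyte markers. Neural stem and progenitor markers reached 4 of 10, Sox2 and Nes among them, and mesenchymal glioma genes 14 of 15. Of all protein coding genes 51.5% were at that level. The cells are referred to as NP53 and given no cell type name. The detected astrocyte markers were Gja1, the gap junction protein connexin 43, at 120.5 ± 1.27 TPM, Sox9, a transcription factor of glial fate, at 45.6 ± 0.849 TPM, and Slc1a3, a glutamate transporter, at 1.74 ± 0.0591 TPM. Gfap, the intermediate filament of astrocytes, had 18, 8 and 13 reads, or 0.198 ± 0.0784 TPM. Aqp4, the water channel of astrocyte endfeet, had 0 reads in all 3 libraries, which allows a level of up to 0.0206 TPM. None of Gja1, Sox9 and Slc1a3 is restricted to astrocytes.

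Among the markers of oligodendrocyte precursors, Pdgfra, the receptor for PDGF-A and a frequently altered oncogene of gliomas, stood at 87.9, 83.2 and 91.4 TPM. Vcan and Cspg4, which encode the chondroitin sulphate proteoglycans versican and NG2, stood at 57.6 ± 6.02 and 12.9 ± 1.5 TPM. Nkx2-2, a homeobox factor, stood at 4.98 ± 0.539 TPM. The lineage-defining basic helix-loop-helix genes Olig1 and Olig2 had 0 reads in all 3 libraries, with upper limits of 0.0595 and 0.0508 TPM. Ptprz1 and Bcan, a receptor phosphatase and a brain proteoglycan, were also at 0 reads, and Sox10 had 2 reads in 1 library. Pdgfra, Vcan and Cspg4 are also expressed by fibroblasts or pericytes, a remark that does not extend to the detected Nkx2-2. The defining factors Olig1 and Olig2 were not detectable at this depth, and the origin of the cells was not tested.

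Oligodendrocyte markers numbered 1 of 10, Cnp at 19.1 ± 0.428 TPM, with the myelin gene Mbp at 0.810 TPM and Mag, Mobp and Mal at 0 reads. Neuron markers numbered 2 of 11, Tubb3 at 36.1 ± 0.775 and Map2 at 4.26 ± 0.0645 TPM, with Dcx and Snap25 at 0 reads. Neural stem and progenitor markers numbered 4 of 10. Sox2, a transcription factor of neural and pluripotent stem cells, had 119.3, 118.9 and 120.0 TPM and had a coefficient of variation of 0.319%. Nes (nestin) stood at 64.3 ± 4.84, Cd24a at 48.4 ± 3.53 and Hes1 at 23 ± 1.09 TPM. Prom1, which encodes CD133, stood at 0.0120 TPM, and Hes5 and Nr2e1 were at 0 reads.

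Sox2 was detected and Olig2 had 0 reads, and their promoters are shown because they hold a similar number of CpG dinucleotides. The 250 bases before the start given by RefSeq (GRCm38.p6) are printed 5′ to 3′ on the gene's strand, with each CpG in capitals. They lie at chr3:34649745-34649994 (plus strand) for Sox2 and at chr16:91225300-91225549 (plus strand) for Olig2. These windows hold 27 CpG for Sox2 and 22 for Olig2.
Sox2: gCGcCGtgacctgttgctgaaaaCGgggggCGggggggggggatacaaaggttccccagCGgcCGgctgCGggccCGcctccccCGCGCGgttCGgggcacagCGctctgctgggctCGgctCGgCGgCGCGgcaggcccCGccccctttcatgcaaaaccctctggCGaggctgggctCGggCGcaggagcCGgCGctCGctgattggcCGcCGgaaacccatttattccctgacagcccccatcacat
Olig2: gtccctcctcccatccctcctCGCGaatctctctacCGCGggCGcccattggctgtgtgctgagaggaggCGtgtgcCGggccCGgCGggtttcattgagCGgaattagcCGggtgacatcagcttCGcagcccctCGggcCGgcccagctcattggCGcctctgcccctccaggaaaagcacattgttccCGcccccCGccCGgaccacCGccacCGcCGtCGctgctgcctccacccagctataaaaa

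In contrast to the glial lists, mesenchymal genes were detected almost throughout. The members of all these lists were chosen with earlier results of these data known, so the contrast is a description. Of 15 mesenchymal glioma genes 14 were at 1 TPM or more and 12 at 100 TPM or more, with a median of 581 TPM against 1.45 TPM over all protein coding genes. Lgals1 and S100a6 led, followed by Spp1 (osteopontin, a secreted phosphoprotein) at 2983 ± 117 TPM, Vim (vimentin) at 1353 ± 19.3, Timp1 (an inhibitor of metalloproteinases) at 1173 ± 9.58 and Anxa2 (annexin A2) at 1162 ± 27.7 TPM. Cd44, the hyaluronan receptor often used to mark the mesenchymal state of glioma, stood at 279.8 ± 6.74 TPM, and Fn1 (fibronectin) at 565.6, 476.2 and 601.0 TPM. Chil1, the mouse gene for chitinase-3-like protein 1, was the exception with 0.184 ± 0.0476 TPM.

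All 15 mesenchymal transcription factors were at 1 TPM or more, with a median of 77.3 TPM. Snai1, a repressor of epithelial cadherin, stood at 165.5, 161.1 and 175.7 TPM. Prrx1, a homeobox factor of mesenchyme, stood at 161.9, 166.6 and 163.7 TPM, and Twist1, a basic helix-loop-helix factor, at 142.6, 142.5 and 139.9 TPM. Snai1 varied most of the 3 between libraries, with a coefficient of variation of 3.76%. Cebpb, which has been placed with Stat3 and Runx1 upstream of the mesenchymal state in human glioma, stood at 150.9 ± 9.96 TPM, with Stat3 at 48.6 ± 1.15 and Runx1 at 23.1 ± 1.07 TPM. The lowest was Zeb2 at 9.21 ± 0.394 TPM.

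Markers of fibroblasts and pericytes split. Col1a1 (1461 ± 85.8 TPM), Acta2 (smooth muscle actin, 969.8 ± 18.9 TPM), Dcn (decorin, 476.9 ± 24.0 TPM), Col1a2 (455.6 ± 12.3 TPM), Col3a1 (234.1 ± 7.23 TPM) and Pdgfrb (156.0 ± 10.4 TPM) were all above 100 TPM. The other 4 of the 10 were below 1 TPM: Lum at 0.176, Des at 0.0232, Rgs5 at 0.00960 TPM and Thy1 at 0 reads. In bulk RNA, a lower number of cells of a type and less RNA per cell cannot be told apart, so these levels do not say whether all cells carried them.

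Most markers of other cell types that a culture or a tumour isolate could hold were below 1 TPM. Endothelial markers numbered 1 of 10 at 1 TPM or more (Flt1 at 2.16 ± 0.203 TPM), and Cldn5, Emcn and Tie1 had 0 reads. Microglia and macrophage markers numbered 3 of 11, and their summed level lay between 60.4 and 65.2 TPM per library. Most of that sum was Tmem119 at 48.6, 45.3 and 49.6 TPM, a membrane protein used as a microglia marker that osteoblasts and fibroblasts also express. Cd68, a lysosomal protein, added 11.7 ± 0.713 and P2ry12, a purine receptor, 2.71 ± 0.5 TPM. Ptprc, which encodes the leukocyte antigen CD45, had 2, 2 and 0 reads, and Adgre1, C1qa and Tyrobp had 0 reads.

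T and NK cell markers numbered 1 of 10, Trac with 14, 26 and 22 reads or 1.42 ± 0.413 TPM, and 7 of the 10 had 0 reads, Cd3e, Cd3d and Cd3g among them. No B cell marker (of 5), epithelial marker (of 8), pluripotency or germ cell marker (of 8) or erythrocyte or liver marker (of 7) reached 1 TPM. The highest of them was Prm1 at 0.673 ± 0.211 TPM. Of 5 sex chromosome genes 4 were detected: the Y-linked Ddx3y and Eif2s3y were the highest at 29.2 ± 2.21 and 23.7 ± 2.37 TPM, and Xist stood at 0.0142 TPM.

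**Figure D3:**
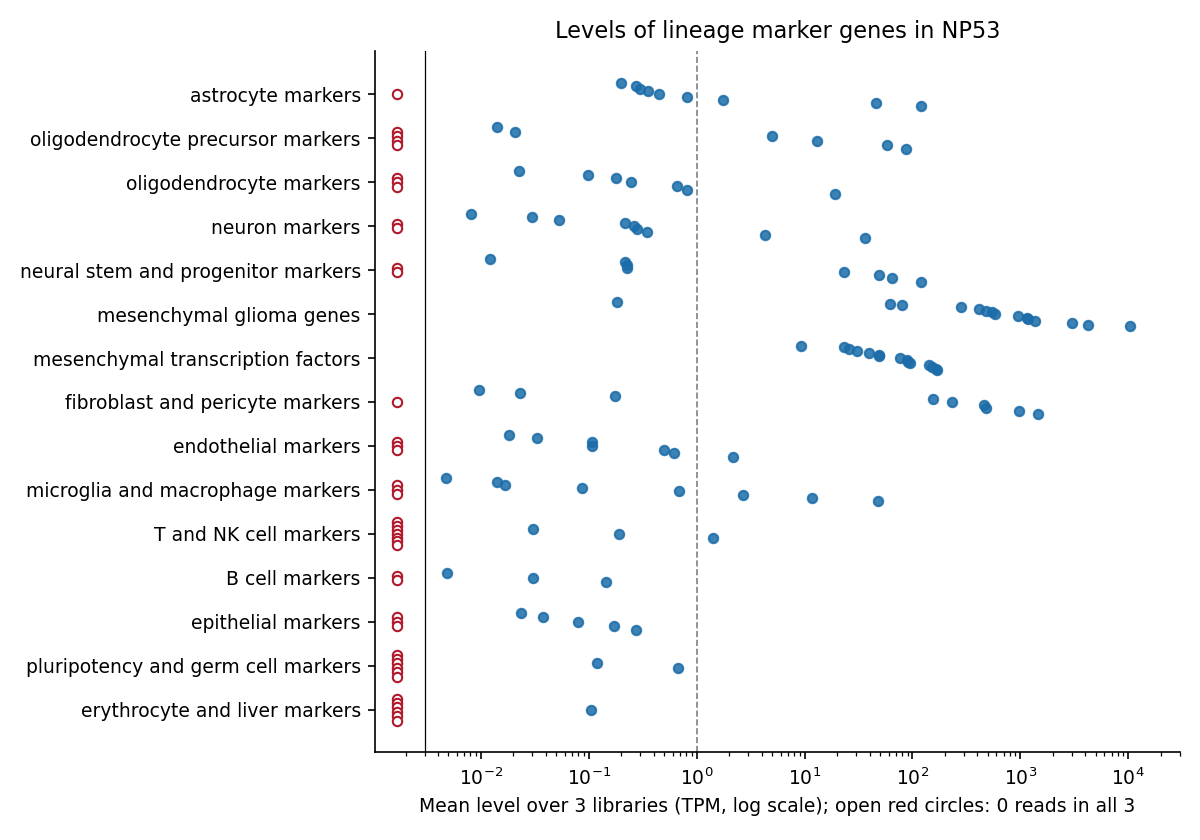
Mean level over the 3 libraries (TPM, log axis) of each member of 15 lineage lists, one point per gene, with open red circles at the left for genes with 0 reads in all 3 and a dashed line at 1 TPM. Mesenchymal glioma genes and mesenchymal transcription factors lie to the right of the line except Chil1 at 0.184 TPM, and most members of the glial, immune and epithelial lists lie to its left.

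Factors that pattern the neural tube were detected from several of its regions. Of 25 brain region transcription factors 15 were at 1 TPM or more, with a median of 2.35 TPM. Over all protein coding genes the share was 51.5% and the median 1.45 TPM. The list is thus not far above that background, and its count assigns no region to the cells. Irx1 and Irx2, Iroquois homeobox genes, stood at 58.8 ± 2.31 and 41.6 ± 0.960 TPM, and Emx2, a homeobox gene of the cortex, at 31.0 ± 1.56 TPM. Dlx2, a homeobox gene of the ventral forebrain, stood at 17.1 ± 1.77 TPM. Emx1, Nkx2-1, Otx2 and Pax7 were among those with 0 reads. Emx2 was thus detected while Emx1, which the cortex also expresses, was not.

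The Hox genes, which give cells their position along the body axis and are silent in the forebrain, showed a sharp border. The neighbours Hoxa2 to Hoxa7 of chromosome 6 were all at 1 TPM or more. Hoxa4 stood at 13.5, 14 and 11.8 TPM, Hoxa7 at 11.2, 10.8 and 10.6 TPM, and the lowest of these neighbours, Hoxa6, at 4.41 ± 0.232 TPM. The next gene of the cluster, Hoxa9, had 0, 2 and 0 reads. Hoxa10 stood at 0.315 ± 0.0457 TPM, Hoxa11 had 0 reads and Hoxa13 stood at 0.149 TPM. In the other clusters no gene exceeded 0.0522 TPM (Hoxc9), and 24 Hox genes had 0 reads there. Hoxa6, Hoxa9, Hoxa10, Hoxa13 and Hoxc9 are named beyond the rule for naming genes, after their values were seen.

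Genes of the cell cycle were high. All 15 proliferation genes were at 71.8 TPM (Tyms) or more, led by Rrm2, the ribonucleotide reductase subunit, at 622.8 ± 25.8 TPM, Pcna at 397.0 ± 26.9 and Top2a at 340.5 ± 7.32 TPM. Mki67, which encodes the Ki-67 antigen, stood at 188.4, 151.3 and 190.5 TPM, lowest in replicate 2. Of 30 glioma driver and tumour suppressor genes 28 were at 1 TPM or more, with a median of 36.7 TPM. The highest was Cdkn2a, at 715.6, 705.6 and 712.0 TPM (chromosome 4, 89274471 to 89294653, minus strand). This locus encodes the inhibitors p16INK4a and p19ARF from different first exons, and the gene counts do not separate them. Id3 and Id1, targets of BMP signalling, stood at 644.8 ± 5.89 and 242.0 ± 3.62 TPM. Cdk4 stood at 533.6 ± 8.79, Myc at 309.9 ± 10.5 and Ccnd1, cyclin D1, at 265.3 ± 8.23 TPM. Named after their values were seen, Trp53 stood at 10.7 ± 0.660, Cdkn2b, the neighbour of Cdkn2a, at 1.17 ± 0.466, Tert at 0.0981 and Mycn at 0.0648 TPM.

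Diffuse midline gliomas often carry mutations of histone H3 that impair the Polycomb complex PRC2, but gene counts hold no sequence and say nothing of mutations. Of 15 histone H3 and Polycomb genes 14 were at 1 TPM or more. H3f3b and H3f3a, which encode the same histone H3.3 protein, stood at 896.0 ± 41.9 and 169.3 ± 14.1 TPM. The PRC2 core genes Suz12, Ezh2 and Eed stood at 147.4 ± 5.81, 55.2 ± 1.80 and 44.8 ± 2.22 TPM. AU022751, the mouse counterpart of the PRC2 inhibitor gene EZHIP, was at 0 reads, with an upper limit of 0.0584 TPM.

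Of the 58 receptor tyrosine kinases 28 were at 1 TPM or more, 48.3% of them, near the background share of 51.5%. Axl, a receptor for Gas6 and protein S, was the highest at 404.8, 405.1 and 433.9 TPM. Epha2, an ephrin receptor, stood at 234.6 ± 11.1, Ryk, a WNT co-receptor, at 169.9 ± 3.91, Pdgfrb at 156.0 ± 10.4, Ddr2, a collagen receptor, at 130.6 ± 7.57 and Fgfr1 at 121.4 ± 6.80 TPM. Erbb4, Kit, Musk, Tie1 and Epha5 were among the 7 with 0 reads.

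Cytokine and interferon receptors reached 27 of 41 at 1 TPM or more, with Il1rl1 at 1623 ± 42.5 TPM the highest. The second was Il6st, which encodes gp130, the shared subunit for interleukin-6 family cytokines, at 128.6 ± 8.56 TPM. Il17rc stood at 117.7 ± 0.710, Il13ra1 at 102.4 ± 4.15 and the interferon-gamma receptor genes Ifngr1 and Ifngr2 at 60.9 ± 1.01 and 53.9 ± 0.782 TPM. Il10ra, Il7r, Il20ra and Il22ra1 were among those with 0 reads. In the TNF receptor family 14 of 25 were detected, near the background share of 51.5%. The highest was Tnfrsf12a, the receptor for the cytokine TWEAK, at 484.3, 477.1 and 471.6 TPM, followed by Ltbr at 180.2 ± 2.71 and Tnfrsf1a, TNF receptor 1, at 180.1 ± 0.378 TPM, which do not differ beyond their spread. Cd40 had 0 reads.

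TGF-beta and BMP receptors were detected in 11 of 14 cases, led by the co-receptor betaglycan (Tgfbr3) at 121.8 ± 4.32 TPM, with Tgfbr2 at 52.2 ± 3.07, Tgfbr1 at 25.6 ± 0.719 and Acvr1, an activin receptor gene mutated in part of human midline gliomas, at 30.6 ± 0.658 TPM. NOTCH, WNT and Hedgehog receptors reached 17 of 22, led by Notch2 at 81.1 ± 7.99 TPM and Smo, the Hedgehog signal transducer, at 78.3 ± 4.89 TPM, which overlap within their spread. Integrins reached 15 of 26, near the background share of 51.5%. They were led by the common beta-1 subunit Itgb1 at 949.9 ± 18.9 TPM, with the fibronectin receptor subunit Itga5 at 240.9 ± 15.3 TPM. G protein-coupled receptors were sparser, at 17 of 60. The highest were F2r, the thrombin receptor PAR1, at 166.9 ± 1.64 TPM and Ackr3, an atypical receptor for CXCL12, at 147.4 ± 2.42 TPM.

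Receptors of neurotransmission were the least represented among the receptor lists. Of 35 glutamate and GABA receptor subunits 3 reached 1 TPM: Gabbr1, a GABA-B subunit, at 10.9 ± 1.54 TPM, Grik5, a kainate receptor subunit, at 3.76 ± 0.338 TPM and Grin2d, an NMDA receptor subunit, at 1.16 ± 0.227 TPM. The AMPA receptor genes Gria3 and Gria4 and the kainate receptor genes Grik1, Grik2 and Grik3 were among the 19 with 0 reads. The median of this list was 0 TPM.

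TIM-3 itself, the product of Havcr2 and the target of the study's knockout, was near the detection level. Havcr2 had 74, 58 and 60 reads, or 1.78, 1.38 and 1.38 TPM (chromosome 11, 46454935 to 46481255, plus strand), a mean of 1.51 ± 0.229 TPM and rank 12440 among all genes. The proteins known as TIM-3 ligands come from genes at very different levels. Hmgb1, a chromatin protein that also acts as an alarmin, stood at 355.1, 372.0 and 367.8 TPM. Lgals9, galectin-9, stood at 29.4, 28.1 and 30.0 TPM. Ceacam1 stood at 0.0336 ± 0.0334 TPM. The related genes Havcr1 (TIM-1) and Timd4 (TIM-4) stood at 0.334 ± 0.0952 and 0.0776 ± 0.0881 TPM.

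Of the 26 genes on this checkpoint list 12 were at 1 TPM or more and 5 had 0 reads. Over all protein coding genes 51.5% were at 1 TPM or more and 27.9% had 0 reads. Cd47, the signal that restrains phagocytosis, stood at 93.1 ± 2.58 TPM. Nectin2 and Pvr, ligands of TIGIT, stood at 39.3 ± 1.95 and 36.4 ± 1.04 TPM. Tigit itself, studied mainly as a brake on T and NK cells, had 341, 286 and 283 reads, or 21.3 ± 2.65 TPM, while Cd3e and Nkg7 had 0 reads. Cd276 (B7-H3) stood at 16.9 ± 0.726, Nt5e (CD73) at 13.7 ± 0.641 and Vsir (VISTA) at 6.57 ± 0.0696 TPM. Cd274, the gene of PD-L1, stood at 1.43 ± 0.204 and Lag3 at 1.48 ± 0.345 TPM, which with Havcr2 do not differ beyond their spread. Pdcd1lg2, Cd86, Ctla4, Ido1 and Fasl had 0 reads.

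Genes of MHC class I were detected and those of class II mostly were not. Of 15 MHC genes 9 were at 1 TPM or more, among them B2m, beta-2 microglobulin, at 1177 ± 60.2 TPM, H2-D1 at 278.8 ± 7.61, Tapbp at 206.6 ± 4.85 and H2-K1 at 75 ± 2.38 TPM. The peptide transporter genes Tap1 and Tap2 were lower, at 2.50 ± 0.287 and 7.93 ± 0.761 TPM. The class II genes H2-Aa and H2-Eb1 had 0 reads, H2-Ab1 stood at 0.115 TPM and the class II transactivator Ciita at 0.0202 TPM. MHC genes share sequence, and reads with several positions were dropped. Among innate sensors 12 of 21 were detected, near the background share of 51.5%. They were led by Tlr2 at 68.0 ± 1.27 TPM, Ddx58, the RNA sensor RIG-I, at 33.7 ± 0.702, and Cd14 at 23.5 ± 0.654 TPM.

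Chemokine transcripts were abundant and came mainly from a few genes. Of 37 chemokine genes 17 were at 1 TPM or more, near the background share of 51.5%. The summed level of the 37 lay between 5732 and 6444 TPM per library. Cxcl1, a neutrophil attractant, stood at 2331, 2314 and 2088 TPM (chromosome 5, 90891241 to 90893115, plus strand), a mean of 2244 ± 135. Ccl2, a monocyte attractant, stood at 1319, 1402 and 1309 TPM, and its neighbour Ccl7 at 884.7, 936.3 and 788.6 TPM. Cxcl5 stood at 544.3, 650.0 and 485.2 TPM, Ppbp (Cxcl7) at 473.3 ± 44.6 and Cxcl12 at 370.4 ± 10.3 TPM. Replicate 3 was the lowest of the 3 for Cxcl1, Ccl2, Ccl7 and Cxcl5. Ccl12, Ccl19, Ccl22, Ccl24 and Ccl26 were among the 8 with 0 reads.

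A short stretch of promoter sequence is shown because it recurred among the detected chemokine genes that were searched. The letters GGGNNTTTCC, a form common to many binding sites of NF-kappaB factors, were searched on both strands of promoters of 300 bases (250 before to 50 after the RefSeq start) for genes with a single promoter in the table. This left 24 of the 37 chemokine genes and 11 of the 17 at 1 TPM or more; Ccl2, Ccl7 and Cxcl5 were not searched. The letters occurred in 5 of 11 promoters of chemokine genes at 1 TPM or more, in 0 of 13 below 1 TPM and in 1.5% of the promoters of all 13823 protein coding genes with a single entry. The motif was chosen with the levels known, and a match describes letters, not bound protein. The 5 genes were Cxcl1, Ccl20, Ccl9, Cxcl2 and Cxcl3, and Cxcl1, Cxcl2 and Cxcl3 are related genes of one cluster. The other 6, Ppbp and Cxcl12 among them, hold no match in these windows. The matches are printed with 8 bases on either side, 5′ to 3′ on the gene's strand (GRCm38.p6), in capitals; on the opposite strand the letters read GGAAANNCCC.
Cxcl1 (89 to 80 bases before the start, on the opposite strand, chr5:90891148-90891173): ggttgcagGGAAACACCCtgtactcc
Cxcl1 (71 to 62 bases before the start, on the gene strand, chr5:90891166-90891191): tgtactccGGGAATTTCCctggcccg
Ccl20 (80 to 71 bases before the start, on the opposite strand, chr1:83116678-83116703): tcaatgggGGAAAACCCCgggtgaga
Ccl9 (35 to 26 bases before the start, on the opposite strand, chr11:83578654-83578679): tgaactttGGAAAGCCCCaagtcacc
Cxcl2 (97 to 88 bases before the start, on the gene strand, chr5:90903794-90903819): tgagctcaGGGAATTTCCctggtccc
Cxcl2 (78 to 69 bases before the start, on the gene strand, chr5:90903813-90903838): tggtccccGGGCTTTTCCagacatcg
Cxcl3 (73 to 64 bases before the start, on the gene strand, chr5:90786020-90786045): gctgcgggGGGAATTTCCccagcccg

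The Cxcl1 promoter is given in full over the 250 bases before the start (chr5:90890995-90891244, plus strand), because Cxcl1 was the most abundant chemokine and holds both orientations of the letters within 89 bases of the start.
Cxcl1: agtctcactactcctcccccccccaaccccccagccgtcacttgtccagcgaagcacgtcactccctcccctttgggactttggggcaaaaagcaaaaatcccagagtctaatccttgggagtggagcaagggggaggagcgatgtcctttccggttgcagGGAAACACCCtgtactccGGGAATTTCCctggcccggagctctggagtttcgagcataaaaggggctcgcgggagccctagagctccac

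Among 55 cytokines 22 were at 1 TPM or more. Mif, the macrophage migration inhibitory factor, stood at 1666, 1723 and 1659 TPM and Csf1, the growth factor of macrophages, at 825.2, 797.6 and 842.0 TPM. Lif and Clcf1 of the interleukin-6 family stood at 142.0 ± 9.22 and 96.0 ± 6.09, Il34, the second ligand of the Csf1 receptor, at 67.6 ± 0.690 and Csf3, the granulocyte factor, at 63.2 ± 3.10 TPM. Of the inflammatory and lymphocyte cytokines, Il1b, Il3, Il9, Il10 and Il12a were among the 14 with 0 reads. Others were detected: Il6 stood at 28.8, Il1a at 12.9 and Il18 at 2.88 TPM, named after their values were seen.

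Of 63 growth factor genes 34 were at 1 TPM or more, near the 51.5% of all protein coding genes. The highest was Hdgf (hepatoma-derived growth factor, largely nuclear) at 1169 ± 18.3 TPM. Fgf7, the keratinocyte growth factor made by mesenchyme for epithelia, stood at 403.2, 423.7 and 388.8 TPM. Ereg, an EGF receptor ligand, stood at 228.7, 250.1 and 226.4 TPM. Grn (progranulin) stood at 259.0 ± 6.46 and Vegfa at 179.7 ± 2.12 TPM. Among 35 TGF-beta, BMP and activin ligands and antagonists 18 were detected, also near that share. The BMP antagonist Grem1 led at 781.5, 774.8 and 777.6 TPM, followed by the follistatin-like Fstl1 at 725.5 ± 14.3 TPM, while Bmp4 stood at 66.6 ± 1.66 TPM. WNT, Hedgehog and NOTCH ligands and secreted antagonists were sparse, at 12 of 41, led by Wnt5a at 97.3, 95.4 and 98.6 TPM.

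Matrix and protease genes were the most complete of the secreted groups. Matrix proteins reached 42 of 52 at 1 TPM or more, with a median of 64.1 TPM and 23 genes at 100 TPM or more. Below Spp1 came Sparc, a collagen-binding glycoprotein, at 1905 ± 39.8, Ccn1, a matricellular protein, at 1805, 1779 and 1735, Col1a1 at 1461 ± 85.8, Thbs1 (thrombospondin-1) at 1061 ± 62.9 and Bgn (biglycan) at 993.8 ± 27.3 TPM. Lama1, Bcan and Eln had 0 reads. Proteases and inhibitors reached 35 of 43, among them the collagen chaperone Serpinh1 at 1833 ± 46.3 TPM, Timp1 at 1173 ± 9.58, Timp2 at 1062 ± 11.4, the collagen cross-linking oxidase Lox at 456.8 ± 18.8 and Ctsl (cathepsin L) at 442.0 ± 10.5 TPM.

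Ligands were next set beside the receptors they are known to bind, for 27 pairs that were chosen after the levels were known. In 19 pairs both genes were at 1 TPM or more, and in 8 the ligand was while the receptor was not. Il33, the ligand of ST2, stood at 17.3 ± 0.948 TPM beside Il1rl1 at 1623 ± 42.5 and the shared co-receptor Il1rap at 13 ± 0.702 TPM. Pdgfa at 53.4 ± 2.96 stood beside Pdgfra at 87.5 ± 4.13 TPM, and Pdgfb at 1.41 ± 0.133 beside Pdgfrb at 156.0 ± 10.4 TPM. For Axl at 414.6 ± 16.7 TPM, the ligand gene Pros1 (protein S) stood at 22.5 ± 1.21 and Gas6 at 1.55 ± 0.210 TPM. Wnt5a at 97.1 ± 1.59 stood beside its receptors Ror2 at 35.3 ± 0.999 and Fzd2 at 45.6 ± 1.06 TPM. Lif stood beside Il6st at 128.6 and Lifr at 3.01 ± 0.260 TPM.

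The abundant chemokines and several growth factors had a receptor gene below 1 TPM. Cxcr2, the receptor for Cxcl1, stood at 0.0426 ± 0.0425 TPM, and Ccr2, the receptor for Ccl2, had 0 reads. Csf1 and Il34 stood beside Csf1r at 0.686 ± 0.162 TPM. Cxcl12 at 370.4 TPM had its signalling receptor Cxcr4 at 0.118 ± 0.0407 and its atypical receptor Ackr3 at 147.4 ± 2.42 TPM. Gdnf at 100.9 ± 4.78 stood beside Ret at 0.337 ± 0.0782 TPM. Kitl at 36.7 ± 3.08 stood beside Kit at 0 reads. Fgf7 at 405.2 and Ereg at 235.1 TPM stood beside lower but detected receptors, Fgfr2 at 4.37 ± 0.290 and Egfr at 5.30 ± 0.602 TPM. The levels of all pairs are per gene and do not separate transcript forms, those of Il1rl1 and Fgfr2 included. They are transcript levels and say nothing of protein or of signalling.

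**Figure D4:**
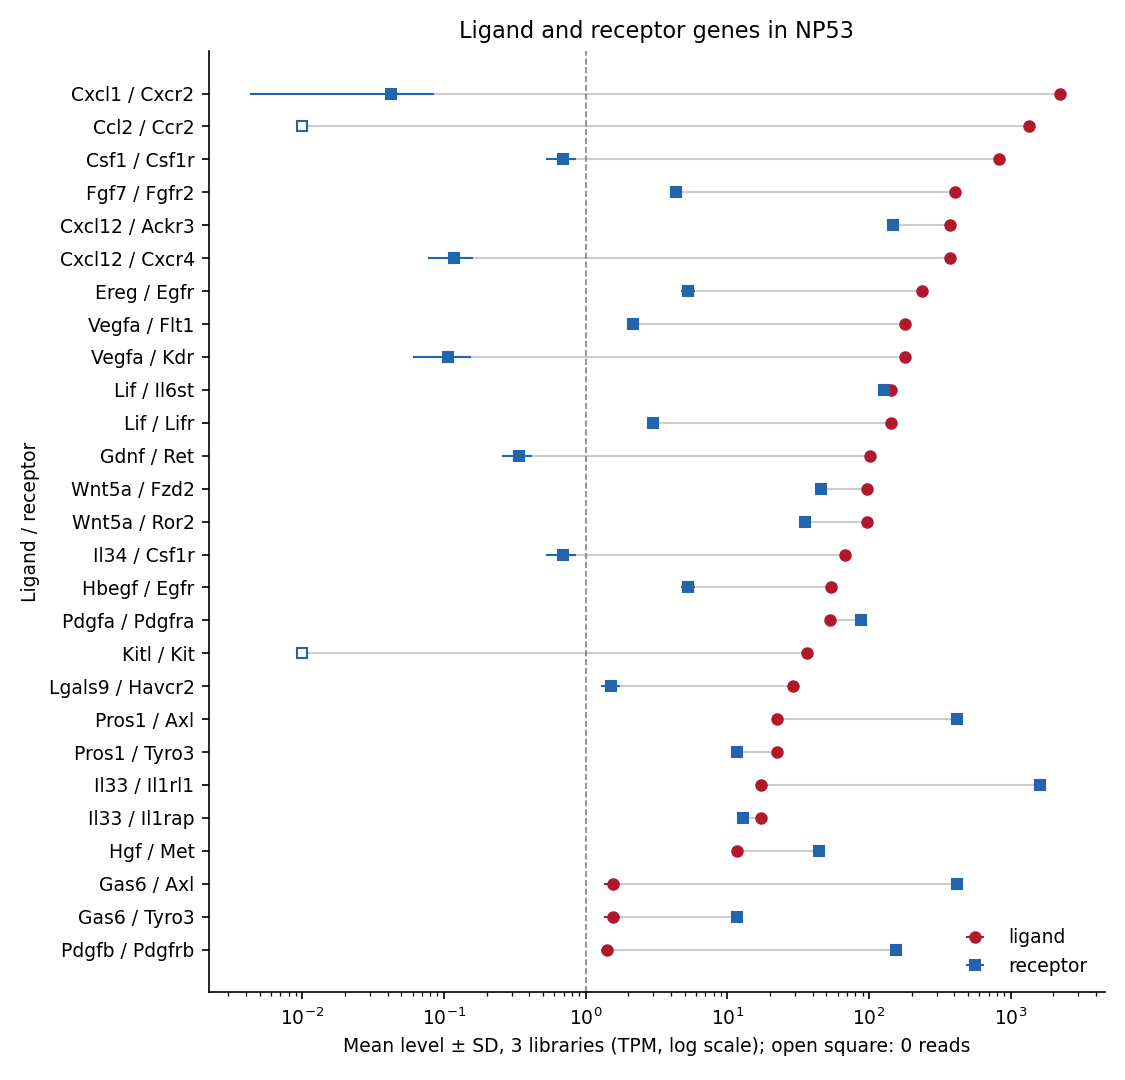
Mean level ± SD over the 3 libraries (TPM, log axis) of the ligand (red circle) and the receptor (blue square) in each of 27 pairs, ordered by the level of the ligand, with an open square for 0 reads, lower error bars drawn to at most 90% of the mean, and a dashed line at 1 TPM. Cxcl1 at 2244 TPM faces Cxcr2 at 0.0426 TPM at the top, and Il33 at 17.3 TPM faces Il1rl1 at 1623 TPM.

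No read was assigned to 30370 genes in any of the 3 libraries, 6105 of them protein coding (27.9% of the protein coding genes). Of the silent protein coding genes, olfactory receptors made up 17.8%, vomeronasal receptors 4.95% and taste and trace amine receptors 0.786%. Symbols of the Gm and Rik kind made up 22.2%, and genes outside the families searched 48.0%. Of 1135 olfactory receptor genes 1084 had 0 reads, as had 302 of 331 vomeronasal receptor genes and 48 of 53 taste and trace amine receptor genes. All 22 major urinary protein genes had 0 reads, as did 59 of 64 defensin genes, 53 of 57 keratin-associated protein genes, 14 of 18 type I interferon genes, 63 of 100 cytochrome P450 genes and 32 of 53 keratin genes. At the other end were 2 of 82 ribosomal protein genes, 35 of 394 genes named Zfp, 6 of 45 collagen genes and 69 of 371 solute carriers. The silent genes lay unevenly on the chromosomes, with 95.4% of protein coding genes on the Y, 43.7% on the X and 40.9% on chromosome 7, against 17.6% on chromosome 12. Of 624 protein coding genes with at least 50% of their exonic bases shared with another gene, 51.4% had 0 reads. Among the rest it was 27.2%. Reads in overlapping genes were dropped in the counting, as were reads with several positions in the genome. The latter step lowers near-identical genes, and its part in the zeros of these families and chromosomes was not tested.

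Promoters of detected and silent genes differed in CpG content. The median number of CpG per promoter of 300 bases was 22 in 7073 genes at 1 TPM or more, 7 in 2694 genes with reads below 1 TPM and 2 in 4056 genes with 0 reads, with 14 over all. Without olfactory and vomeronasal receptors the median of the silent genes was 3. At least 10 CpG were present in 88.2% of promoters at 1 TPM or more and in 14.8% of the silent ones. Olig2, shown above, is one of the CpG-rich promoters without reads. All these shares are of the 13823 genes with a single promoter entry, and the 100 most abundant were ranked among them. TATAAA on the gene's strand within 15 to 45 bases before the start was found in 8% of these 100. It was found in 1.34% of the genes at 1 TPM or more, in 6.04% of the silent genes and in 3.23% of all 13823. Ccn1 is an abundant gene with this element, which stands in capitals 25 to 20 bases before the start (GRCm38.p6, chr3:145649986-145650235, minus strand).
Ccn1: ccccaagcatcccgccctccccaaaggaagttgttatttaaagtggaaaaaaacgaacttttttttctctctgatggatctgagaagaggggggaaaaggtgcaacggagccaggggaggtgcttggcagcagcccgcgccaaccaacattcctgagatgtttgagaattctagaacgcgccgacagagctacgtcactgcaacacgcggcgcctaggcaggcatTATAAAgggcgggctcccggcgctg

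**Figure D5:**
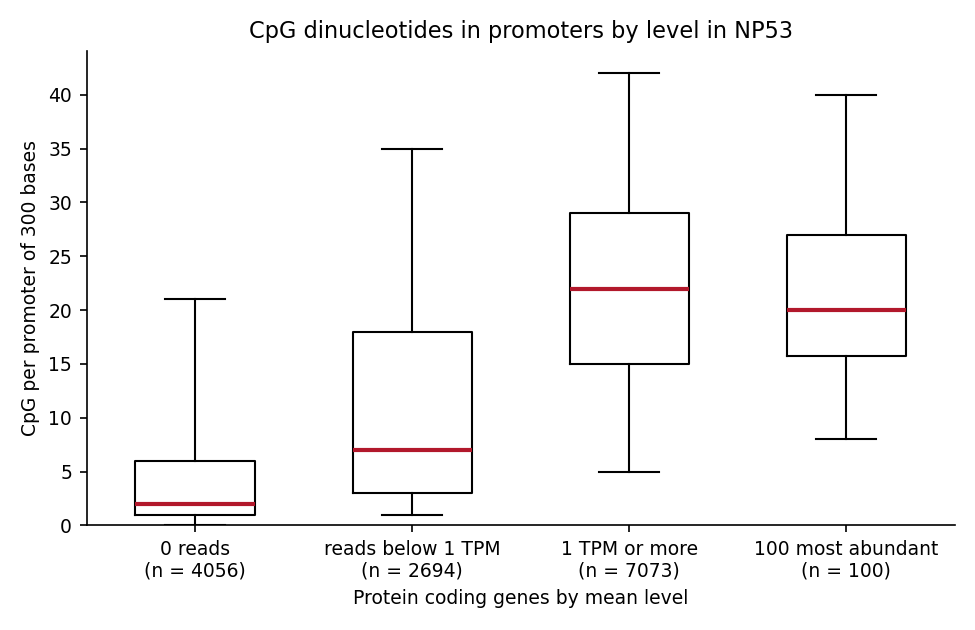
CpG per promoter of 300 bases (vertical axis) for the 13823 protein coding genes with a single promoter entry. The groups are genes with 0 reads, with reads below 1 TPM, at 1 TPM or more and the 100 most abundant of these genes. Boxes span the quartiles with the median in red and whiskers reach the 5th and 95th percentiles; the medians are 2, 7, 22 and 20.

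The 3 libraries were close to one another but not copies. Among 9502 protein coding genes at 5 TPM or more the median coefficient of variation was 4.15%. It was 31.7% between 0.1 and 1 TPM, 8.33% between 1 and 10, 4.2% between 10 and 100, 3.21% between 100 and 1000 and 2.30% above. A chi-square statistic per degree of freedom between pairs of libraries was 6.92 for replicates 1 and 2, 4.71 for 1 and 3 and 13.7 for 2 and 3, where sampling alone would give a value near 1 for independent reads and near 2 for read pairs counted through both mates. Replicate 2 was lower in long genes, with a median log2 ratio to the mean of the 3 of -0.03 in the 2376 longest of these genes and 0.02 in the 2373 shortest. Fn1, whose annotated length is 11685 bases, was lowest in replicate 2, as were Vcan and Mki67, and the part of gene length in these values was not tested.

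The protein coding genes with the largest spread at 5 TPM or more had at most 388 reads in any library. Rtl8c, a retrotransposon-derived gene, had 31, 25 and 64 reads and a coefficient of variation of 49.6%, the highest. Next were a second gene ID of Aldoa with 44, 82 and 84 reads, mt-Atp8 with 18, 28 and 18 reads, and Fcor with 52, 34 and 34 reads. Hmx2, a homeobox gene, had 301, 191 and 276 reads and Smim26 300, 388 and 262 reads. The others of the 10 were Mapk1ip1, Fetub, Rpl9-ps6 and Tmem17. Outside the protein coding genes, the highest level belonged to Gm23935, a gene model of 57 bases typed in the annotation as a miRNA, at 6328, 3726 and 5481 TPM from 5513, 3282 and 4976 reads, which was singled out after its values were seen. Its CPM was 84.4, so the level in TPM rests on the division by its length.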

How the data were processed

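Poly(A) RNA of 3 Gcontrol libraries was sequenced with a stranded kit and paired reads, as the labels state. The deposited tables hold raw counts: per the file headers, the authors ran featureCounts 1.6.0 with the GENCODE vM25 annotation of GRCm38. Alignment with STAR 2.6.1c and quality control with FastQC 0.11.8 are named in the submitters' processing notes. The header options show that each mate counted once, that strand was not used, and that reads matching several positions or several genes were left out, which lowers near-identical and overlapping genes and mixes antisense pairs. Even numbers made up 74.1% to 75.1% of the counts from 2 to 50.

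CPM and TPM were computed from the deposited counts, TPM with the deposited gene length over all genes (Python 3.11.15, pandas 2.3.3). Symbols and gene types came from GENCODE vM21, which held 55141 of 55401 gene IDs, and the other 260 kept their ID. TMM and RLE factors came from edgeR 4.0.16. Levels were recovered from reads simulated from these same levels and gene lengths, which checks the arithmetic only. The simulation held no loss of reads with several positions or in shared exons, and no spread between libraries beyond sampling. No test between groups was made, and no p-value is given. Promoters were matched by symbol to a RefSeq table (GRCm38.p6), 13823 genes with a single entry, none of them on chromosome 18.

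The members and the 44 gene lists (1054 entries, 1024 different genes) were chosen with earlier results of these data known, so a count on a list is a description. The naming rule took the 15 protein coding genes highest in TPM and in CPM, the whole checkpoint list, in other lists up to 6 highest members and up to 5 at 0 reads (any member in lists of 15 or fewer), and the 10 genes with the highest coefficient of variation at 5 TPM or more. It skips symbols of the Gm and Rik type. Genes of the ligand and receptor pairs, of the mitochondrial genome beyond the rule, and those said to be named after their values were seen lie outside it. Some genes that the naming rule takes, with the pairs they belong to, are not reported here.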

Additional observations from a re-analysis of the deposited data

How the results depend on the processing

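Counts of detected and silent genes stayed within 1.5 times of the reported count under each alternative tried (level minimum, unit, gene length, total, reads allowed, shared exons, each library left out). Detected protein coding genes, 11275 as reported, ranged from 11116 (1 TPM in each library) to 11932 (a mean of 0.5 TPM), and silent ones, 6105, reached 7774 with at most 6 reads allowed. Of 44 list counts, 40 moved by no more than that with a minimum of 0.5 TPM, 41 with 1 CPM, 43 with 1 TPM in each library, 43 with the longest transcript as gene length, and all 44 with nuclear protein coding genes alone as the total or without any one library. Oligodendrocyte markers numbered 3 at 0.5 TPM, 3 at 1 CPM and 2 with transcript lengths. Endothelial markers numbered 3 and germ cell markers 1 at 0.5 TPM, T and NK cell markers 0 with 1 TPM in each library and 0 at 1 CPM, and glutamate and GABA receptor subunits 5 at 0.5 TPM and 5 at 1 CPM.

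Shares depended on the scale. With transcript lengths, nuclear protein coding genes as the total, and reads in place of TPM, in that order, the 10 most abundant genes held 7.47%, 6.52% and 4.27%, the 100 most abundant 25.8%, 23.5% and 17.4%, ribosomal protein genes 10.9%, 10.5% and 4.84%, glycolytic enzymes 1.46%, 1.24% and 1.25%, cytoskeletal genes 2.87%, 3.03% and 2.59%, translation factors 2.83%, 2.76% and 2.39%, chaperones 2.37%, 2.78% and 2.36%, and oxidative stress and iron genes 1.2%, 1.19% and 0.800%. The 1000 most abundant genes held 59.6% with nuclear protein coding genes as the total and 51.3% of reads. Mitochondrial genes held 3.89% with transcript lengths and 1.8% of reads. Without each library in turn the 10 most abundant genes held 8.65% to 8.80%. Of the 15 genes highest in TPM, 14 remained with transcript lengths and 15 with the other total and without any one library.

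The median coefficient of variation was 6.67% with no filter on low levels, 4.16% with TMM factors, and 2.8% to 4.46% without each library in turn. It was 2.8% without replicate 2. TMM and RLE factors moved the CPM of none of the 21 genes among the 15 highest in TPM or the 15 highest in CPM beyond 1 SD. Their TPM did depend on the scale. It moved beyond 1 SD in 19 of the 21 with the longest transcript as gene length. With nuclear protein coding genes alone as the total it moved in all 21. The SD of a level in TPM thus does not cover the choice of length or total. No paired analysis was possible because a single group was described. Depth limits mainly genes below 1 TPM, where the median coefficient of variation was 31.7% from 0.1 TPM up.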
